A study of Homo sapiens with 12 samples.

Results

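The replication-dependent histone genes encode the linker histone H1 and the core histones H2A, H2B, H3 and H4 that package newly made DNA. They were taken as the protein-coding genes whose GENCODE 29 symbols begin with HIST1H, HIST2H, HIST3H or HIST4H, which found 71 genes, all of them among the 60669 genes of the count tables. Of these, 60 genes had 20 or more counts over the 12 libraries and form the set described here. They comprised 6 H1, 15 H2A, 17 H2B, 10 H3 and 12 H4 genes, 48 of them in the large cluster on chromosome 6 (HIST1), 9 in HIST2 and 2 in HIST3 on chromosome 1, and HIST4H4 on chromosome 12. The other 11 genes held 0 to 12 counts each and were left out.

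Replication-dependent histone genes are transcribed mainly in S phase, when the cell copies its DNA. Their messages have no introns and normally end in a conserved stem-loop in place of a poly(A) tail, and the stem-loop binding protein SLBP, with the U7 small nuclear ribonucleoprotein, directs the cut that forms this end. When replication stops the messages are rapidly degraded. Some of these genes can also make polyadenylated messages, which are known from cells that have stopped dividing.

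Total RNA had been sequenced from PANC-1, a human pancreatic ductal adenocarcinoma line, after 72 h of transfection with an siRNA. Per the file names the siRNA was Scr1, read here as the control, or SIK3, against the salt-inducible kinase SIK3, and the cells were CLM, 30min or 4h. CLM was read as unstimulated by elimination, and the times as TNF-α, an inflammatory cytokine, given at 100 ng/mL for 30 min or 4 h per the labels. Each of the 6 groups held 2 libraries, described as biological replicates without a statement on separate cultures, so p-values measure the spread between these samples, which may be technical. All groups shared the transfection and the parental line, and 1 siRNA was used for the target. The titles, which call the target AS1, assign other conditions to 8 of the 12 libraries, in 4 of the 6 groups, so every group is named below by its file-name words.

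The targeted gene followed the file-name words. SIK3 stood at 34.3 and 60.4 CPM (counts scaled to a common library total, with trimmed-mean factors, TMM) in Scr1 CLM, replicate 1 and then 2, at 42.5 and 68.7 CPM in Scr1 30min and at 34.4 and 65.2 CPM in Scr1 4h. It stood at 16.3 and 22.4 CPM in SIK3 CLM, 17.3 and 24.0 CPM in SIK3 30min and 18.2 and 22.8 CPM in SIK3 4h. All 6 SIK3 libraries lay below all 6 Scr1 libraries, with a mean log2 difference of -1.29 (2-sided exact permutation test, p = 0.00216, 2 of 924 splits). With conditions from the titles the difference was -0.354 (exact permutation p = 0.431). Gene counts ran from 13535825 to 22699756 per library, so that 3 counts, the limit for a gene with no count, correspond to 0.132 to 0.222 CPM of counting error only. Reads with several matches made up 4.94 to 45.3% of reads, and reads outside annotated genes 16.5 and 17.1% in SIK3 4h against 8.35 to 10.5% in the other 10 libraries. The line's markers KRT8, KRT18, KRT19 and VIM summed to 9088 to 10200 CPM in the Scr1 libraries and 6583 to 8517 CPM in the SIK3 libraries, without overlap. VIM was the 1 of these 4 called lower in CLM (log2 -1.27), and the part of this in the histone changes was not tested. CDKN2A, deleted in PANC-1, had 0 counts, and 8 markers of leukocytes, endothelium, fibroblasts, acinar cells and islets summed to 0.531 to 2.37 CPM.

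The sequence element that marks these messages could be read from the transcripts of GENCODE 29 (GRCh38). A 16-base stem-loop (GG, any 3 bases, TT, any 3 bases, A, any 3 bases, CC, on the sense strand, with a fully paired stem of 6 base pairs and a loop of 4) was found in 28 of the 60 genes and in 89 of 19613 other protein-coding genes (0.454%). It was found in 28 of the 33 histone genes whose models include an untranslated region and in 0 of the 27 whose models stop at the coding sequence, where it could not have been seen. The 5 versions found are each shown by 1 gene, with the stem-loop in capitals and its flanks, as far as the transcript runs, in lower case.
HIST1H2BE: cccaaaGGCTCTTTTCAGAGCCa
HIST1H2BC: cccaaaGGCTCTTTTAAGAGCCacccag
HIST1H4E: atcaaaGGCCCTTTTCAGGGCCgcccac
HIST1H4I: taaaaaGGCCCTTTTTAGGGCCcctaag
HIST1H3E: tccaaaGGCTCTTCTCAGAGCCaacca
The version of HIST1H2BE was shared by 15 genes of the H2A, H2B and H3 classes, and that of HIST1H4E by 5 genes, all H4. The version of HIST1H2BC occurred in 4 genes, that of HIST1H4I in 3 H4 genes and that of HIST1H3E in this gene alone. HIST1H4I and HIST1H3E are shown because of the direction or the times of their calls, as given further on. In 15 of the 28 genes at least 1 annotated transcript continued past the stem-loop to an AATAAA, the usual signal for polyadenylation.

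Promoters from RefSeq (GRCh38.p14, 250 bases before to 50 after the start) matched 50 of the 60 genes. On either strand, the octamer ATTTGCAT, which binds OCT1, occurred in 9 of 14 H2A and 8 of 12 H2B promoters, in 0 of the H1, H3 and H4 promoters, and in 1.72% of 35051 other promoters. The core of the H4 site II element, GGTCCG, bound by HINFP, occurred in 10 of 10 H4 promoters and in 11.3% of the others. CCAAT occurred in 42 of the 50 histone promoters, 2 of them H4, against 34.5% of the others, and TATAAA in 31 of 50 against 11.4%. Motifs were counted separately where they could overlap. The windows of back-to-back H2A and H2B genes can overlap, so that the same site counts for both, as for HIST1H2AG and HIST1H2BJ. The windows of HIST2H4A and HIST2H4B have the same sequence, so these promoters are not all independent. The 4 promoters printed here have these motifs in capitals on either strand. That of HIST1H2BK (chr6:27146806-27147105, minus strand) lies in the stretch shared with HIST1H2AH, the gene with the largest called fall, that of HIST1H2AC (chr6:26123922-26124221, plus strand) in the stretch shared with HIST1H2BC. HIST1H4L (chr6:27873485-27873784, minus strand) is the H4 promoter shown, though it has the CCAAT that only 2 of 10 H4 promoters had. HIST3H2A (chr1:228457824-228458123, minus strand) stands for the HIST3 pair, for which no change was called.
HIST1H2BK: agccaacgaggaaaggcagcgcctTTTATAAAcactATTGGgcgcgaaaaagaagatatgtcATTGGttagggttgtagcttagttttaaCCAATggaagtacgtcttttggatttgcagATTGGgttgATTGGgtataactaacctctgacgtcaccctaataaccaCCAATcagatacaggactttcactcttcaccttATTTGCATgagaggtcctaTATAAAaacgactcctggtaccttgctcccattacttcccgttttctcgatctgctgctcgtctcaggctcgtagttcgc
HIST1H2AC: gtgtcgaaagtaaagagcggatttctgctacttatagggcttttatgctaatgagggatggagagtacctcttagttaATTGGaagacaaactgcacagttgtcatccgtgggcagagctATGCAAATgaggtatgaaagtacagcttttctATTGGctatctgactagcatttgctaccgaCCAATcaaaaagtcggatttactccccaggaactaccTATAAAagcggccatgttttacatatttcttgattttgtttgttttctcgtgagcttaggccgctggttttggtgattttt
HIST1H4L: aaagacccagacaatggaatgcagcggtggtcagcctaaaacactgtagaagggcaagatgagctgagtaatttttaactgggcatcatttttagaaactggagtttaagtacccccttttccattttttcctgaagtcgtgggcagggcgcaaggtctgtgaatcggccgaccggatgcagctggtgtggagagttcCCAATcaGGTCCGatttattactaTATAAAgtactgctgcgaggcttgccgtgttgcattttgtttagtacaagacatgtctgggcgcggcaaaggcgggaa
HIST3H2A: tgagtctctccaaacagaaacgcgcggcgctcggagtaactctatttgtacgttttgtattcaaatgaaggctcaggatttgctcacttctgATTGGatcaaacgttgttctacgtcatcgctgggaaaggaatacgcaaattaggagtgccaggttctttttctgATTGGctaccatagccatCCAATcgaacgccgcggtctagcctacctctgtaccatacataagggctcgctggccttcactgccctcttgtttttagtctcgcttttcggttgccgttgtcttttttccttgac
The octamer appears in the HIST1H2BK and HIST1H2AC promoters and not in these letters of the HIST3H2A window.

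The question of what SIK3 siRNA does to histone messages in unstimulated cells had a uniform answer across the classes. The 60 histone genes summed to 2415 and 2061 CPM in Scr1 CLM and to 732.4 and 695.2 CPM in SIK3 CLM. Both SIK3 libraries lay below both Scr1 libraries. In the edgeR quasi-likelihood fit of all libraries, 47 of the 53 histone genes that passed the filter on low counts fell and 0 rose (Benjamini-Hochberg adjusted p under 0.05 over 16695 genes). Over all genes 19.8% were called lower and 18.9% higher. The median log2 fold change was -1.99 for the histone genes and 0.01 for all genes. The fall was counted in 4 of 4 H1, 12 of 13 H2A, 16 of 17 H2B, 7 of 9 H3 and 8 of 10 H4 genes tested, and 51 of 53 were lower in both replicate numbers. No share of all genes is given for the count within replicate numbers.

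After 30 min, the sums were 2061 and 1998 CPM in Scr1 30min and 766.5 and 766.5 CPM in SIK3 30min, again apart. Here 43 of 53 histone genes fell and 0 rose, with a median of -1.70 (all genes -0.01, of which 19.6% were called lower and 18.2% higher). At 4 h the sums were 2237 and 2125 CPM in Scr1 4h and 974.6 and 983.5 CPM in SIK3 4h. At this time 36 of 53 fell and 1 rose, HIST1H4I, with a median of -1.09 (all genes 0.03, 19.9% called lower and 19.6% higher). At 4 h 4 of 4 H1, 10 of 13 H2A, 14 of 17 H2B, 4 of 9 H3 and 4 of 10 H4 genes fell, and the H3 median was -0.60. Across times, 42 of the 53 genes had all 6 SIK3 libraries below all 6 Scr1 libraries and 0 had them above, where 17.6 and 16.8% of all genes did so. In bulk RNA, fewer cells in S phase and less histone RNA per cell cannot be told apart.

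**Figure D1:**
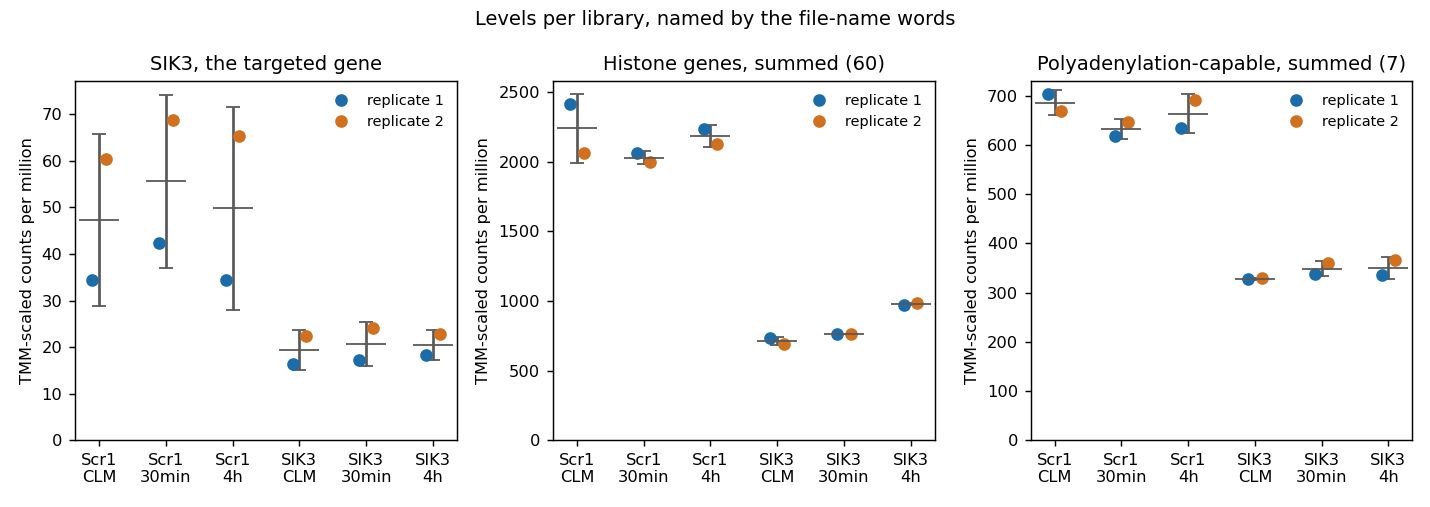
Levels per library in TMM-scaled CPM by file-name group, for SIK3, for the 60 histone genes summed and for the 7 polyadenylation-capable genes summed; points are the replicates, dashes the mean and bars the SD of the pair. The histone sum lies at 1998 to 2415 CPM in the Scr1 libraries and at 695.2 to 983.5 CPM in the SIK3 libraries, with the SIK3 4h pair above the other SIK3 pairs.

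The 7 histone genes not tested were too low for the filter. They were HIST1H1A (20 counts over all libraries), the testis-type H1 gene HIST1H1T (39), HIST2H2AA3 (39) and HIST2H2AA4 (24), HIST2H3D (34), and HIST2H4A (62) and HIST2H4B (27). HIST2H2AA3 with HIST2H2AA4, and HIST2H4A with HIST2H4B, are near-identical copies, and reads with several matches are listed apart from the genes, so their levels are uncertain. The same doubt holds in part for other H2A, H2B, H3 and H4 genes with close relatives. The exons of HIST1H2AD and HIST1H3D also overlap AL031777.3, those of HIST1H2BE an antisense gene, and those of HIST1H2AK and HIST1H2AL the gene HIST1H2BN. Those of HIST1H3J overlap HIST1H2AM on the same strand. On the opposite strand, HIST2H2AB overlaps BOLA1, HIST2H2BF overlaps FCGR1A, HIST2H4A overlaps HIST2H3C and HIST2H4B overlaps HIST2H3A. The strand setting of the counting is not stated. Of the 53 tested, 49 had at least 10 counts in every library, and 44 of these fell in CLM.

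**Figure D2:**
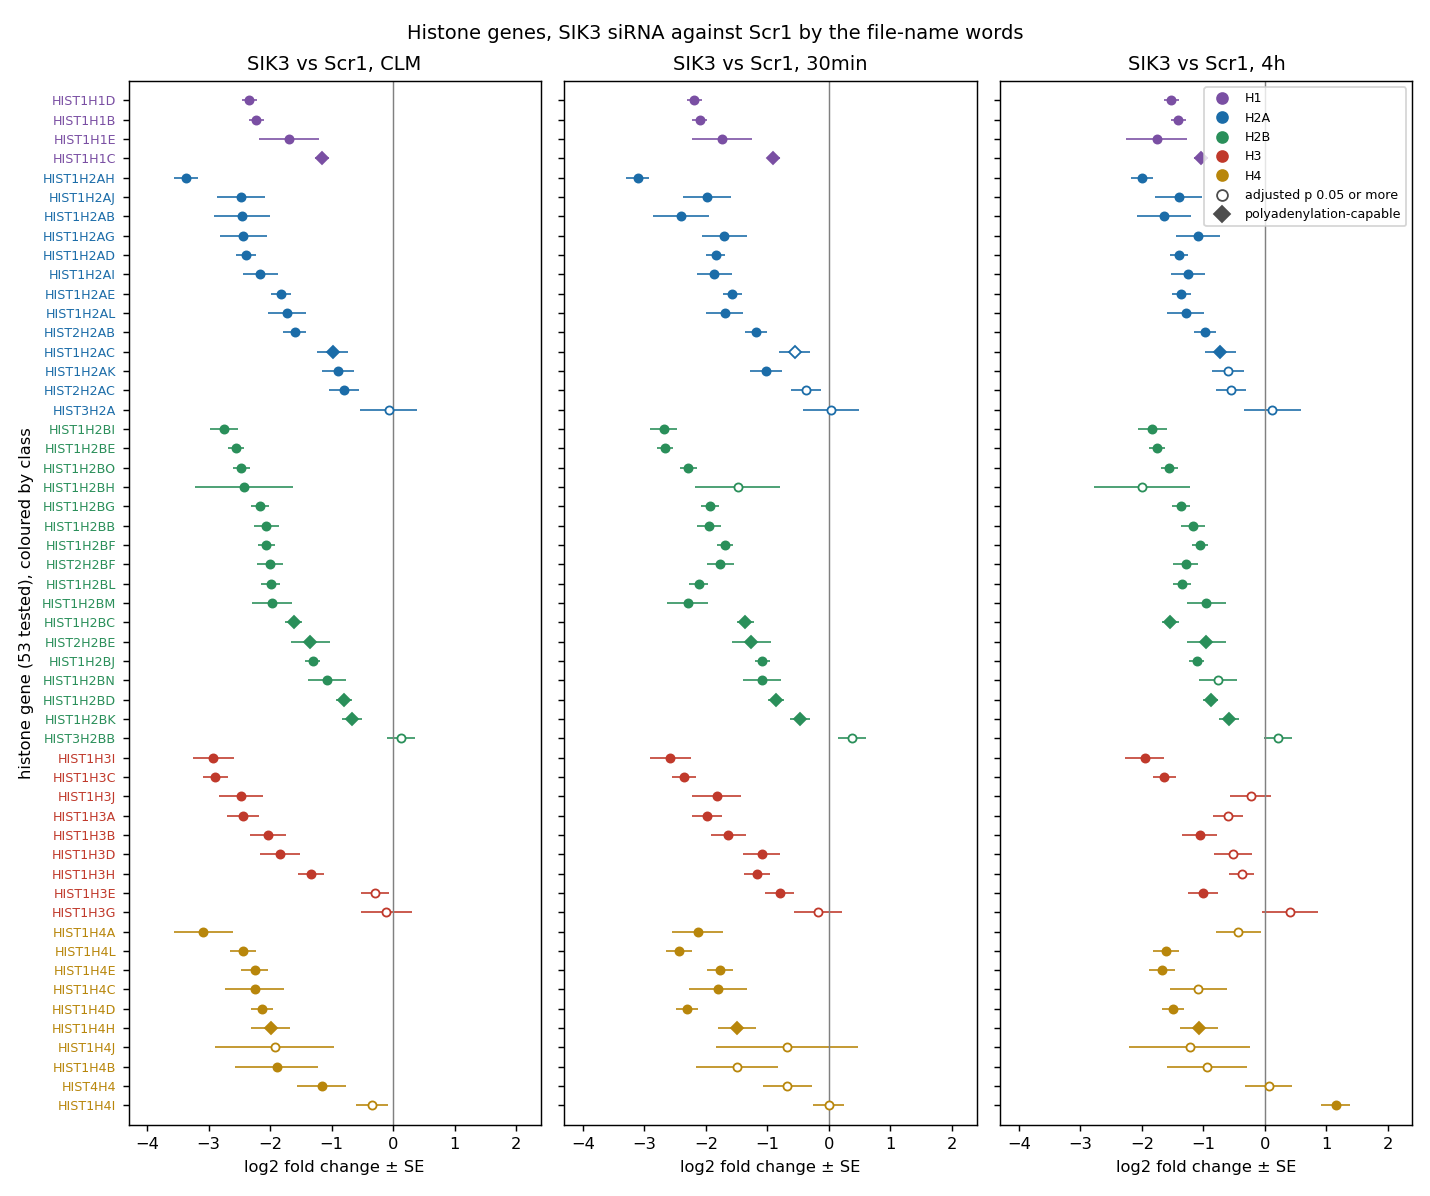
Log2 fold change with its standard error for the 53 histone genes tested, SIK3 against Scr1 in CLM, 30min and 4h, coloured by class, with open symbols where the adjusted p is 0.05 or more and diamonds for polyadenylation-capable genes. Filled symbols lie left of 0 except HIST1H4I at 4h, and the values shift toward 0 from CLM (median -1.99) to 4h (median -1.09).

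Among the linker histones, which bind the DNA between nucleosomes, HIST1H1C had the highest level per length of all 60 genes, 279.4 CPM per kb of exon averaged over the libraries. Lengths are those of the gene models, which are coding-only for HIST1H1C, HIST1H2AJ and HIST1H3C, so this and later rankings by length depend on the models. HIST1H1C stood at 246.8 and 264.0 CPM in Scr1 CLM, 211.7 and 239.1 in Scr1 30min and 227.0 and 257.8 in Scr1 4h. It stood at 112.9 and 116.6 CPM in SIK3 CLM, 114.4 and 126.5 in SIK3 30min and 110.2 and 125.4 in SIK3 4h. The SIK3 libraries were level across times and all below the Scr1 libraries, 2.23-fold lower in CLM (log2 -1.15, SE 0.11, edgeR adjusted p = 3.59e-05), 1.87-fold at 30min and 2.06-fold at 4h. HIST1H1B was at 153.2 and 126.4 CPM in Scr1 CLM, 136.1 and 131.3 in Scr1 30min, and 146.0 and 133.1 in Scr1 4h, against 31.3 and 28.5 in SIK3 CLM, 28.9 and 33.4 in SIK3 30min and 53.2 and 52.1 in SIK3 4h. Unlike HIST1H1C it was higher in both SIK3 4h libraries than in the other SIK3 libraries, and it was 4.67-fold lower in CLM (log2 -2.22, SE 0.12, edgeR adjusted p = 1.51e-06) and 2.65-fold at 4h. HIST1H1E differed between the replicates in every group, with 93.0 and 140.7 CPM in Scr1 CLM, 86.1 and 153.1 in Scr1 30min, 95.7 and 178.8 in Scr1 4h, 26.4 and 46.2 in SIK3 CLM, 22.2 and 49.6 in SIK3 30min and 30.4 and 50.6 in SIK3 4h. The siRNA groups did not overlap, and it was 3.23-fold lower in CLM (edgeR adjusted p = 0.0221). Its siRNA calls in CLM, 30min and 4h were each lost without replicate 2 of the Scr1 group or replicate 1 of the SIK3 group compared.

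HIST1H2AH (H2AC12, ENSG00000274997, chromosome 6, 27147129 to 27147515, plus strand, GRCh38), an H2A gene with a coding-only model, had the largest called fall in each of the 3 siRNA comparisons. It stood at 65.5 and 52.3 CPM in Scr1 CLM, 52.99 and 47.88 in Scr1 30min and 67.8 and 58.5 in Scr1 4h, against 6.48 and 4.83 in SIK3 CLM, 6.62 and 5.05 in SIK3 30min and 15.1 and 16.5 in SIK3 4h. The groups were far apart at each time. The fold was 10.3 lower in CLM (log2 -3.37, SE 0.20, edgeR adjusted p = 1.96e-06), 8.64 at 30min and 3.99 at 4h. HIST1H2AJ, the H2A gene with the highest level per length, stood at 123.8 and 73.3 CPM in Scr1 CLM, 95.8 and 64.0 in Scr1 30min and 113.9 and 68.4 in Scr1 4h. It stood at 21.5 and 13.8 CPM in SIK3 CLM, 25.6 and 14.7 in SIK3 30min and 38.8 and 30.4 in SIK3 4h, below the Scr1 libraries throughout, with a log2 change of -2.47 in CLM (SE 0.40, edgeR adjusted p = 0.000915). In every group replicate 2 was lower than replicate 1. HIST2H2AC differed less, with 85.0 and 57.5 CPM in Scr1 CLM, 64.8 and 51.7 in Scr1 30min, 80.6 and 57.8 in Scr1 4h, 44.5 and 37.2 in SIK3 CLM, 49.7 and 40.1 in SIK3 30min and 54.8 and 40.0 in SIK3 4h. Over all times its siRNA groups overlapped. The log2 change was -0.80 in CLM (edgeR adjusted p = 0.0271), and the call was lost without Scr1 CLM replicate 1 or either SIK3 CLM library (edgeR adjusted p from 0.0525 to 0.179). At 30min (log2 -0.38) and 4h (log2 -0.55) it was called with the replicate block (edgeR adjusted p = 0.000201 and 2.72e-06) and not without it (0.261 and 0.106).

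Of the H2B genes, HIST1H2BI stood at 11.6 and 7.85 CPM in Scr1 CLM, 9.49 and 9.27 in Scr1 30min and 7.34 and 6.09 in Scr1 4h, against 1.421 and 1.496 in SIK3 CLM, 1.32 and 1.57 in SIK3 30min and 1.79 and 1.99 in SIK3 4h. It was 6.70-fold lower in CLM (log2 -2.74, SE 0.23, edgeR adjusted p = 1.62e-05), 6.45-fold at 30min and 3.55-fold at 4h, with no overlap between the siRNAs. HIST1H2BE, whose stem-loop is printed above, stood at 27.3 and 26.0 CPM in Scr1 CLM, 28.2 and 30.2 in Scr1 30min, 24.8 and 27.4 in Scr1 4h, 4.85 and 4.15 in SIK3 CLM, 4.28 and 4.90 in SIK3 30min and 7.83 and 7.61 in SIK3 4h. The replicates were close and the siRNAs far apart, with HIST1H2BE 5.88-fold lower in CLM (log2 -2.56, SE 0.13, edgeR adjusted p = 1.26e-06), 6.35-fold at 30min and 3.38-fold at 4h. HIST1H2BJ differed less, with 47.6 and 50.4 CPM in Scr1 CLM against 18.6 and 21.1 in SIK3 CLM, 40.6 and 44.1 against 18.7 and 21.1 at 30min and 53.05 and 61.03 against 25.0 and 28.0 at 4h. It was 2.47-fold lower in CLM (log2 -1.31, SE 0.12, edgeR adjusted p = 3.41e-05).

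In the H3 class, HIST1H3C stood at 112.5 and 93.5 CPM in Scr1 CLM, 84.8 and 67.3 in Scr1 30min and 99.7 and 87.8 in Scr1 4h, against 15.4 and 12.3 in SIK3 CLM, 17.0 and 12.6 in SIK3 30min and 27.9 and 32.5 in SIK3 4h. It had the highest level per length of this class and fell in each comparison, 7.41-fold in CLM (log2 -2.89, SE 0.20, edgeR adjusted p = 5.11e-06), 5.14-fold at 30min and 3.104-fold at 4h. HIST1H3I stood at 34.4 and 45.0 CPM in Scr1 CLM, 24.3 and 39.7 in Scr1 30min, 32.23 and 52.97 in Scr1 4h, 4.93 and 5.58 in SIK3 CLM, 4.17 and 6.52 in SIK3 30min and 9.76 and 12.1 in SIK3 4h. No SIK3 library reached a Scr1 library, and it was 7.57-fold lower in CLM (log2 -2.92, SE 0.34, edgeR adjusted p = 0.000121). HIST1H3B stood at 77.5 and 47.1 CPM in Scr1 CLM, 63.9 and 47.2 in Scr1 30min, 76.1 and 52.6 in Scr1 4h, 17.8 and 12.7 in SIK3 CLM, 20.2 and 15.6 in SIK3 30min and 32.3 and 29.5 in SIK3 4h. Its siRNA groups did not overlap, and it fell by 2.03 on the log2 scale in CLM (SE 0.29, edgeR adjusted p = 0.000464).

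HIST1H3E, a low gene, was called lower at 30min and 4h and not in CLM. It stood at 2.59 and 2.19 CPM in Scr1 CLM, 2.30 and 2.14 in Scr1 30min and 2.12 and 2.21 in Scr1 4h, against 1.88 and 2.04 in SIK3 CLM, 1.38 and 1.18 in SIK3 30min and 0.863 and 1.27 in SIK3 4h. The siRNA groups were near each other in CLM (log2 -0.30, edgeR adjusted p = 0.337) and further apart at 30min (log2 -0.80, edgeR adjusted p = 0.0223) and 4h (log2 -1.01, edgeR adjusted p = 0.0104). The interaction at 4h, -0.71 with SE 0.34, was not called (edgeR adjusted p = 0.525). HIST1H3E and HIST1H3G (log2 -0.11 in CLM, 0.41 at 4h, not called) were chosen for mention after their values were seen.

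H4 genes encode the same protein from many copies. HIST1H4E stood at 64.4 and 47.3 CPM in Scr1 CLM, 56.5 and 45.8 in Scr1 30min and 61.5 and 43.6 in Scr1 4h, against 12.9 and 10.5 in SIK3 CLM, 15.6 and 14.5 in SIK3 30min and 17.6 and 15.4 in SIK3 4h. It was 4.76-fold lower in CLM (log2 -2.25, SE 0.22, edgeR adjusted p = 3.87e-05) with no overlap. HIST1H4L, the gene of the H4 promoter above, stood at 48.2 and 36.0 CPM in Scr1 CLM, 48.5 and 38.3 in Scr1 30min, 51.0 and 39.7 in Scr1 4h, 8.86 and 6.53 in SIK3 CLM, 7.79 and 8.19 in SIK3 30min and 15.7 and 14.1 in SIK3 4h. Its siRNA groups were apart too, 5.43-fold in CLM (log2 -2.44, SE 0.21, edgeR adjusted p = 2.18e-05). HIST1H4C stood at 55.8 and 30.7 CPM in Scr1 CLM, 49.2 and 29.1 in Scr1 30min, 52.6 and 26.8 in Scr1 4h, 11.3 and 6.73 in SIK3 CLM, 14.6 and 7.70 in SIK3 30min and 22.3 and 15.4 in SIK3 4h. Replicate 2 was lower in all 6 groups. It fell in CLM (log2 -2.25, SE 0.48, edgeR adjusted p = 0.00469), and at 4h (log2 -1.08) it was called with the replicate block (edgeR adjusted p = 5.69e-09) and not without it (0.0921).

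HIST1H4A, a low gene, stood at 2.85 and 2.33 CPM in Scr1 CLM, 2.63 and 3.32 in Scr1 30min and 3.64 and 2.21 in Scr1 4h, against 0.460 and 0.0680 in SIK3 CLM, 0.662 and 0.686 in SIK3 30min and 2.19 and 2.21 in SIK3 4h. It was far lower in CLM (log2 -3.08, SE 0.48, edgeR adjusted p = 0.000787), where SIK3 replicate 2 was below the limit for no count, and near the Scr1 level at 4h (log2 -0.43, edgeR adjusted p = 0.401). HIST1H4I (H4C9, chromosome 6, 27138588 to 27139881, plus strand), stood at 1.16 and 0.990 CPM in Scr1 CLM, 1.04 and 0.964 in Scr1 30min, 1.09 and 1.03 in Scr1 4h, 0.878 and 0.816 in SIK3 CLM, 1.07 and 0.932 in SIK3 30min and 2.12 and 2.59 in SIK3 4h. It was the only histone gene called higher with SIK3 siRNA at any time, 2.22-fold at 4h (log2 1.15, SE 0.24, edgeR adjusted p = 0.00417), with both SIK3 4h libraries above the other 10.

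The HIST3 pair on chromosome 1 did not pass the test at any time. HIST3H2A, an H2A gene, stood at 7.45 and 3.60 CPM in Scr1 CLM, 7.73 and 4.18 in Scr1 30min and 6.98 and 4.82 in Scr1 4h, against 6.02 and 4.56 in SIK3 CLM, 8.10 and 4.07 in SIK3 30min and 8.10 and 4.91 in SIK3 4h. HIST3H2BB, its H2B neighbour, stood at 1.48 and 1.34 CPM in Scr1 CLM, 1.32 and 1.23 in Scr1 30min, 1.88 and 1.58 in Scr1 4h, 1.42 and 1.70 in SIK3 CLM, 1.78 and 1.52 in SIK3 30min and 2.12 and 1.93 in SIK3 4h. Over all times both overlapped between the siRNAs, with log2 changes of -0.07 (SE 0.46), 0.03 (SE 0.45) and 0.12 (SE 0.46) for HIST3H2A and of 0.13 (SE 0.23), 0.37 (SE 0.23) and 0.22 (SE 0.23) for HIST3H2BB. HIST4H4 on chromosome 12 was 15.9 and 8.20 CPM in Scr1 CLM, 6.61 and 4.08 in SIK3 CLM and 15.3 and 10.6 in SIK3 4h, where Scr1 4h held 14.7 and 9.96. It was lower in CLM (log2 -1.16, SE 0.40, edgeR adjusted p = 0.0443) and not called at 30min (-0.68) or 4h (0.06).

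The share of histone counts taken by 4 of the 5 classes differed between the replicate numbers of every group. H2A genes held 28.1 to 31.3% of histone counts in replicate 1 and 23.03 to 24.93% in replicate 2, and H4 genes 10.1 to 13.3% and 6.79 to 10.2%. H1 genes went the other way, with 21.1 to 24.9% in replicate 1 and 24.51 to 29.02% in replicate 2, and so did H2B genes, with 23.45 to 29.55% and 27.42 to 35.15%. H3 genes held 9.17 to 10.9% in the Scr1 libraries, 6.01 to 7.29% in SIK3 CLM and 30min and 9.47 and 9.93% in SIK3 4h. Reads with several matches made up 4.94 to 17.6% in replicate 1 and 10.2 to 45.3% in replicate 2 libraries, and their part in these shares was not tested.

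The list of 7 polyadenylation-capable genes (HIST1H1C, HIST1H2AC, HIST1H2BC, HIST1H2BD, HIST1H2BK, HIST1H4H and HIST2H2BE) moved less than the other histone genes. Summed, they were at 618.0 to 703.0 CPM in the Scr1 libraries and 326.9 to 366.5 CPM in the SIK3 libraries, while the other 53 genes were at 1352 to 1712 and 365.9 to 639.6 CPM. Their median log2 change was -1.15, -0.90 and -0.95 in CLM, 30min and 4h, against -2.06, -1.77 and -1.196 for the other 46 tested, a difference that was not tested. The list is not the same as the genes with an annotated AATAAA past the stem-loop. HIST1H2BE and HIST1H4E, outside the list, have this signal (log2 -2.56 and -2.25 in CLM). So do HIST1H3E and HIST3H2BB (log2 -0.30 and 0.13), while HIST1H2BC, in the list, has none. Of the 7 listed genes 7 fell in CLM, 6 at 30min and 7 at 4h, where 19.8, 19.6 and 19.9% of all genes were called lower. The 4h calls of HIST1H2AC, HIST1H2BK, HIST1H4H and HIST2H2BE were each lost in some fits with 1 library left out. The same held at 30min for HIST1H2BK and HIST2H2BE. HIST1H2BD, an H2B gene, stood at 127.2 and 131.1 CPM in Scr1 CLM, 132.6 and 139.8 in Scr1 30min, 125.6 and 154.6 in Scr1 4h, 72.4 and 76.2 in SIK3 CLM, 69.2 and 81.0 in SIK3 30min and 70.4 and 81.5 in SIK3 4h. It was level across times under SIK3 siRNA and 1.74-fold below Scr1 in CLM (log2 -0.80, SE 0.13, edgeR adjusted p = 0.000837). HIST1H4H stood at 51.7 and 34.6 CPM in Scr1 CLM, 43.3 and 33.3 in Scr1 30min, 43.6 and 30.4 in Scr1 4h, 13.9 and 7.62 in SIK3 CLM, 15.4 and 11.9 in SIK3 30min and 19.0 and 16.2 in SIK3 4h, and had the largest fall of the 7 in CLM (log2 -1.99, SE 0.32, edgeR adjusted p = 0.000832). HIST2H2BE stood at 46.2 and 55.6 CPM in Scr1 CLM, 35.9 and 51.0 in Scr1 30min, 40.4 and 54.8 in Scr1 4h, 14.8 and 25.6 in SIK3 CLM, 14.0 and 22.3 in SIK3 30min and 20.3 and 28.7 in SIK3 4h. The HIST2H2BE groups did not overlap (log2 -1.34 in CLM, edgeR adjusted p = 0.00882), and the call was lost without SIK3 CLM replicate 1 (edgeR adjusted p = 0.0677).

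Histone genes were also counted by the extent of their gene models. Coding-only models leave out reads that lie wholly in an untranslated region, but they count coding reads of any form, polyadenylated or not. The split therefore does not separate polyadenylated messages from the others. Of genes with coding-only models 25 of 25 tested fell in CLM with a median of -2.34. Of genes with an untranslated region 22 of 28 fell, with a median of -1.76. At 4h the counts were 19 of 25 and 17 of 28, with medians of -1.29 and -1.08. Of all genes, whatever their model, 19.8% were called lower in CLM and 19.9% at 4h. Of the 7 polyadenylation-capable genes HIST1H1C and HIST1H2BK have coding-only models, with log2 changes of -1.15 and -0.67 in CLM. The split by gene model was chosen after seeing the data and its difference was not tested.

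An H2A and an H2B gene that start back to back share 1 promoter stretch, and 9 such pairs with gene-model starts 219 to 331 bases apart were measured. For coding-only models this start is that of the coding sequence. Pairs whose models overlap, such as HIST1H2AK with HIST1H2BN, were left out. The ratio of H2A to H2B differed between the siRNAs in 3 of them with libraries exchanged freely, and in 5 with libraries exchanged only within a replicate number. No share over other gene pairs is given, so these counts cannot be read as particular to the divergent pairs. The gene-model starts of HIST1H2AH and HIST1H2BK lie 331 bases apart around the first promoter printed. HIST1H2BK stood at 77.0 and 76.7 CPM in Scr1 CLM, 61.3 and 73.3 in Scr1 30min and 70.8 and 90.8 in Scr1 4h, against 46.1 and 50.8 in SIK3 CLM, 44.2 and 53.4 in SIK3 30min and 48.1 and 59.7 in SIK3 4h. It was 1.59-fold lower in CLM (log2 -0.67, SE 0.16, edgeR adjusted p = 0.00905) where HIST1H2AH was 10.3-fold lower. No SIK3 library reached a Scr1 library for either gene, and the HIST1H2BK call was lost without SIK3 CLM replicate 1 (edgeR adjusted p = 0.0625). The log2 ratio of HIST1H2AH to HIST1H2BK was -0.38 ± 0.24 (SD, n = 6) in the Scr1 libraries and -2.65 ± 0.74 (n = 6) in the SIK3 libraries, a difference of -2.26 with the libraries fully apart (2-sided exact permutation p = 0.00216, the smallest these libraries allow, 0.00974 adjusted over 9 pairs). HIST1H2AH has a coding-only model, as does HIST1H2BK.

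In the pair of HIST1H2AC and HIST1H2BC, 219 bases apart, the H2B gene fell more. HIST1H2AC stood at 115.2 and 75.5 CPM in Scr1 CLM, 98.0 and 76.7 in Scr1 30min, 93.4 and 68.9 in Scr1 4h, 55.5 and 41.1 in SIK3 CLM, 66.7 and 51.9 in SIK3 30min and 54.7 and 43.6 in SIK3 4h. HIST1H2BC stood at 38.8 and 30.5 CPM in Scr1 CLM, 35.1 and 32.6 in Scr1 30min, 34.2 and 34.3 in Scr1 4h, 11.3 and 11.3 in SIK3 CLM, 14.2 and 12.2 in SIK3 30min and 12.3 and 11.4 in SIK3 4h. Neither gene overlapped between the siRNAs. Their log2 ratio was 1.34 ± 0.20 (SD, n = 6) with Scr1 and 2.10 ± 0.17 (n = 6) with SIK3, a difference of 0.755 (exact permutation p = 0.00216, adjusted 0.00974). HIST1H2AC fell by 0.98 on the log2 scale in CLM (edgeR adjusted p = 0.0129, and 0.0938 to 0.101 without Scr1 CLM replicate 1 or SIK3 CLM replicate 2). At 30min HIST1H2AC was called with the replicate block (edgeR adjusted p = 3.65e-07) and not without it (0.113). The third pair to pass was HIST1H2AD with HIST1H2BF, whose ratio was 0.25 ± 0.14 (SD, n = 6) with Scr1 and -0.02 ± 0.10 (n = 6) with SIK3, a small difference of -0.27 (exact permutation p = 0.00433, adjusted 0.013) with overlapping libraries. HIST2H2AC with HIST2H2BE had a difference of 0.64 that passed only with the replicate block (exact permutation within replicate numbers, p = 0.005, the smallest it allows, adjusted 0.015, against an adjusted 0.146 without the block). Its log2 ratio was 0.85 to 1.00 with Scr1 and 1.43 to 1.83 with SIK3 in replicate 1, and 0.02 to 0.08 and 0.48 to 0.85 in replicate 2, so that the siRNAs were apart within each number. HIST1H2AG with HIST1H2BJ, at -0.549, also passed only with the block (exact permutation, adjusted p = 0.036 against 0.175), with overlap. The 3 pairs called without the block were called with it as well (adjusted exact permutation p from 0.015 to 0.0225). For the other 4 pairs the difference ran from -0.21 to 0.239, with adjusted exact permutation p from 0.198 to 0.636 without the block and from 0.06 to 0.525 with it. These ratio tests were chosen after seeing the data and pool the 3 times.

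**Figure D3:**
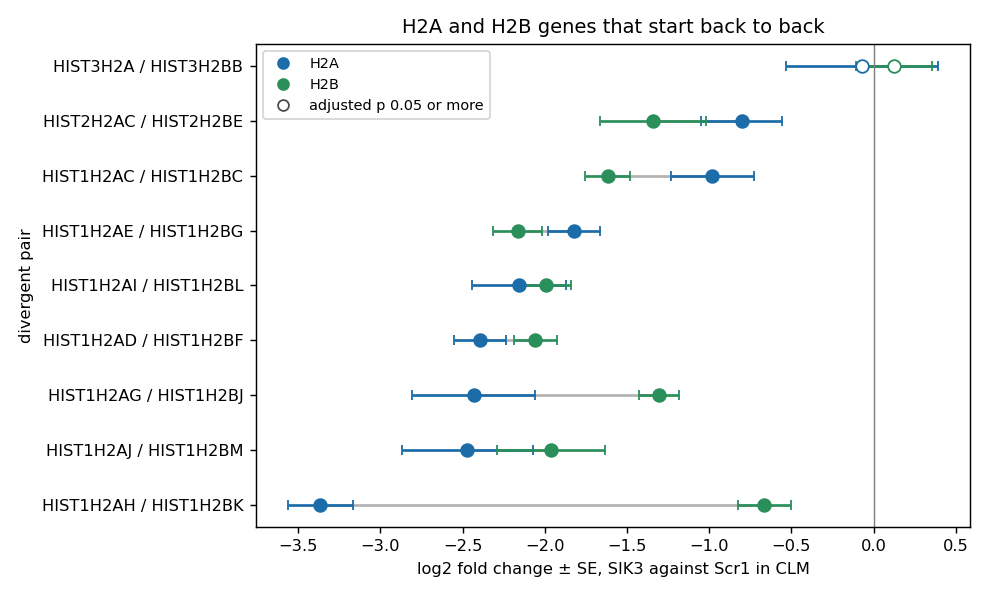
Log2 fold change with its standard error, SIK3 against Scr1 in CLM, for the 9 H2A and H2B genes that start back to back, 1 pair per row, with open symbols where the adjusted p is 0.05 or more. HIST1H2AH at -3.37 and HIST1H2BK at -0.67 lie the furthest apart, and the HIST3 pair lies at -0.07 and 0.13.

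How histone genes respond to TNF-α with time was asked within each siRNA. In the Scr1 libraries 0 of 53 histone genes were called at 30min against CLM (0.294% of all genes were), with 3 at an unadjusted edgeR p under 0.05 and a median of -0.13. DESeq2 and limma voom called 0 as well, and with the replicate block 2 were called, both lower. Without the block, 0.27% of all genes were called higher and 0.024% lower. At 4h 1 of 53 was called, where 8.99% of all genes were, 5.53% higher and 3.46% lower. This was the linker histone gene HIST1H1D, which went from 58.7 and 53.6 CPM in Scr1 CLM to 33.7 and 32.6 in Scr1 4h, with 51.9 and 53.5 in Scr1 30min. Both 4h libraries lay below the other Scr1 libraries, 1.70-fold lower than CLM (log2 -0.76, SE 0.12, edgeR adjusted p = 0.00277). HIST1H1D stood at 11.9 and 10.3 CPM in SIK3 CLM, 10.7 and 12.3 in SIK3 30min and 10.8 and 12.3 in SIK3 4h, where its change was 0.06 (edgeR adjusted p = 0.918), and the interaction, 0.82, was not called (edgeR adjusted p = 0.0534). With the replicate block 4 were called at 4h in Scr1, 3 lower and 1 higher, and no share of all genes is given with it. The call count at 4h was 2 without Scr1 CLM replicate 2.

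In the SIK3 libraries 0 of 53 histone genes were called at 30min (0.15% of all genes, 0.138% higher and 0.012% lower), with 2 at an unadjusted edgeR p under 0.05, 0 called by DESeq2 or limma voom and 2 called higher with the replicate block. At 4h against CLM, 15 of 53 rose and 0 fell, where 3.65% of all genes were called higher, 0.767% lower and 4.42% in either direction. The median was 0.69 for the histone genes and 0.00 for all genes, and 46 of 53 were higher in both replicate numbers, a count given without a share of all genes. With the replicate block 38 were called, 37 higher, but the shares of all genes above are without the block and none is given with it. The count was 4 without SIK3 CLM replicate 1, 2 without SIK3 CLM replicate 2, 4 without SIK3 4h replicate 1 and 2 without SIK3 4h replicate 2. All 15 lie in the chromosome 6 cluster, and 0 of the 7 polyadenylation-capable genes were called (median 0.06) against 15 of the other 46 (median 0.75). The SIK3 4h libraries are also those with 16.5 and 17.1% of reads outside annotated genes, and the part of this in the rise was not tested. This comparison shares the SIK3 CLM libraries with the siRNA comparison in CLM and the SIK3 4h libraries with that at 4h.

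Of the 15 rises 13 were of genes with at least 10 counts in every library, and these ran from 1.66-fold for HIST1H2BF to 2.98-fold for HIST1H3A. The other 2, HIST1H3J and HIST1H4A, rest on few counts in SIK3 CLM, where HIST1H4A stood at 0.460 and 0.0680 CPM. HIST1H3A, an H3 gene next to HIST1H4A, stood at 1.71 and 1.63 CPM in SIK3 CLM, 2.14 and 1.91 in SIK3 30min and 5.24 and 4.80 in SIK3 4h, against 11.3 and 6.86 in Scr1 CLM, 8.34 and 7.71 in Scr1 30min and 8.50 and 6.64 in Scr1 4h. It rose 2.98-fold under SIK3 siRNA (log2 1.57, SE 0.26, edgeR adjusted p = 0.0101) to below the Scr1 range, a call lost without any 1 of the SIK3 CLM and SIK3 4h libraries (edgeR adjusted p from 0.0555 to 0.0859). HIST1H2AH rose 2.77-fold (log2 1.47, SE 0.19, edgeR adjusted p = 0.00279), and this call held without any 1 of the 12 libraries. HIST1H1B rose 1.76-fold (edgeR adjusted p = 0.00536, and 0.0512 to 0.0747 without SIK3 CLM replicate 2 or SIK3 4h replicate 1).

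Whether the change with time differed between the siRNAs was tested as an interaction. At 30min 0 of 53 histone genes and 0% of all genes were called, with 1 histone gene at an unadjusted edgeR p under 0.05, 0 called by DESeq2 or limma voom and 1 called with the replicate block. At 4h 4 of 53 were called, all with a more positive change under SIK3 siRNA, where 1.56% of all genes were called in either direction 0.719% in that direction and 0.845% in the other. The median interaction was 0.82 on the log2 scale for the histone genes and 0.03 for all genes. With the replicate block 34 were called, all positive, and no share of all genes is given with it. The 4 were HIST1H3A (1.84, SE 0.35, edgeR adjusted p = 0.0347), HIST1H2AH (1.37, SE 0.26, 0.0329), HIST1H2BF (1.00, SE 0.18, 0.0294) and HIST1H1B (0.82, SE 0.17, 0.0492). HIST1H2BF stood at 24.0 and 23.1 CPM in Scr1 CLM, 22.5 and 22.6 in Scr1 30min, 20.4 and 18.5 in Scr1 4h, 6.02 and 5.24 in SIK3 CLM, 6.92 and 7.01 in SIK3 30min and 8.63 and 10.1 in SIK3 4h, so that the Scr1 libraries were lowest and the SIK3 libraries highest at 4h. With any 1 of the 12 libraries left out 0 to 2 of the 53 were called. HIST1H1B and HIST1H2BF lost the call without any 1 library, HIST1H3A without any 1 but Scr1 CLM replicate 2 and HIST1H2AH without any 1 but the SIK3 30min libraries (edgeR adjusted p from 0.0508 to 0.222). With the 4 groups of the contrast fitted alone 0 were called, 9 with DESeq2 and 2 with limma voom.

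**Figure D4:**
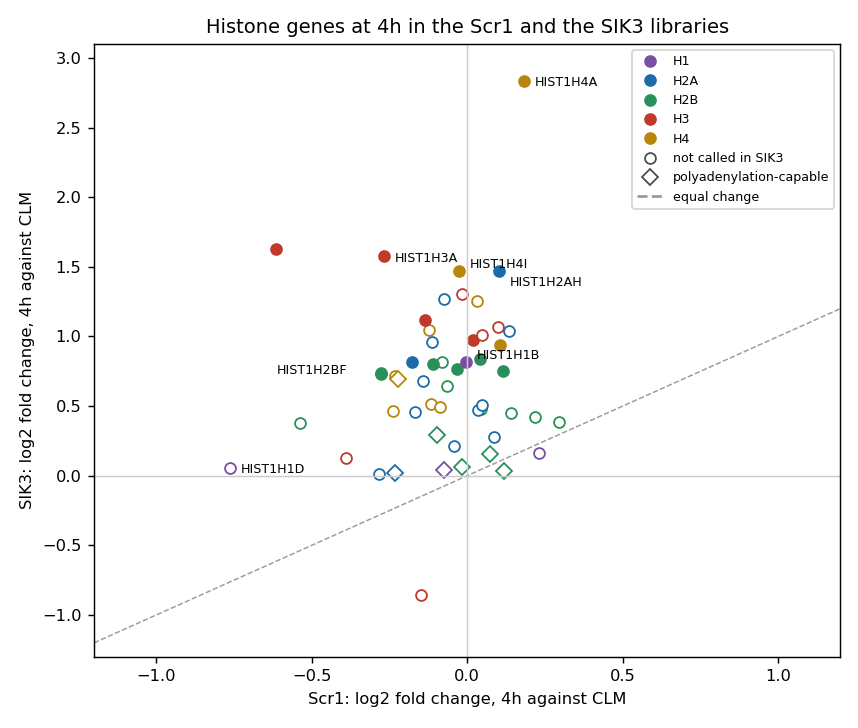
Log2 fold change at 4h against CLM for the 53 histone genes tested, in the Scr1 libraries (x axis) and in the SIK3 libraries (y axis), filled where the change in the SIK3 libraries was called, with the dashed line at equal change. Most points lie above the line, with medians of -0.07 in Scr1 and 0.69 in SIK3.

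Of 17 genes for histone transcription and 3' end processing 11 fell and 0 rose in CLM, 10 fell and 0 rose at 30min and 10 fell and 1 rose at 4h. Of all genes 19.8, 19.6 and 19.9% were called lower and 18.9, 18.2 and 19.6% higher in these comparisons, and the other lists below are read against the same shares. In this list 3 genes had a positive log2 change in CLM and 5 at 4h, and the medians over the list were -0.77, -0.69 and -0.67 in CLM, 30min and 4h. CCNE2, a cyclin that activates CDK2 at the start of S phase, was at -2.19 in CLM (edgeR adjusted p = 4.57e-06), LSM11 of the U7 particle at -2.11 (adjusted p = 3.03e-05), the 3' end endonuclease complex subunit CPSF2 at -1.54 (adjusted p = 1.47e-06) and the cap-binding protein gene NCBP1 at -1.12 (adjusted p = 3.68e-05). Outside the rule for named genes, SLBP was at -0.79 (adjusted p = 0.029) and NPAT, the cyclin E and CDK2 target that activates histone promoters, at -0.70 (adjusted p = 0.000259). ZNF473, a U7 partner, was the 1 gene of this list called higher, at 4h (0.44, adjusted p = 0.0111). Of 5 histone mRNA decay genes measured, 3 fell in each comparison and SMG1 rose in CLM and at 4h. The exonuclease gene ERI1, which trims the histone stem-loop, was at -3.09 in CLM (adjusted p = 2.97e-06), the 5' exonuclease gene XRN1 at -1.02 (adjusted p = 4.2e-05) and the helicase gene UPF1 at -0.65 (adjusted p = 0.00133). SMG1, the kinase of UPF1, was at 0.61 in CLM (adjusted p = 0.0283), a call lost without Scr1 CLM replicate 1 or either SIK3 CLM library (edgeR adjusted p from 0.0591 to 0.204), and at 4h without Scr1 4h replicate 1 or SIK3 4h replicate 2 (0.0582 to 0.0919).

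Of 22 histone chaperones and assembly genes 14 fell in CLM, 14 at 30min and 13 at 4h, and 0 rose. ASF1B, which carries new H3 and H4, was at -2.53 in CLM (edgeR adjusted p = 7.84e-06), HJURP, the chaperone of the centromere histone, at -2.26 (adjusted p = 7.9e-07), MMS22L at -2.07 (adjusted p = 1.38e-06) and NASP at -0.84 (adjusted p = 4.72e-05). Another list held 12 genes as replication-independent histone variants, most but not all of which are made only as polyadenylated messages throughout the cell cycle or for special sites. Of these 12, 9 fell in CLM, 10 at 30min and 8 at 4h, with medians of -0.99, -0.95 and -0.89. CENPA, the centromere histone, was at -1.83 (edgeR adjusted p = 0.000112), H2AFZ at -1.42 (adjusted p = 0.00116), H2AFX at -1.203 (adjusted p = 4.2e-05) and H2AFV at -1.13 (adjusted p = 1.6e-05).

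Of 32 S phase and DNA replication genes 32 fell in CLM, 31 at 30min and 31 at 4h, with medians of -1.64, -1.50 and -1.33. In CLM, CCNA2, the S phase cyclin, was at -2.84 (edgeR adjusted p = 1.39e-06), RRM2, which supplies deoxynucleotides, at -2.34 (adjusted p = 9.94e-07), the replication fork gene GINS1 at -2.16 (adjusted p = 8.47e-07) and the helicase gene MCM4 at -1.76 (adjusted p = 7.9e-07). The histone median thus lay below that of the S phase genes in CLM (-1.99) and 30min (-1.70) and above it at 4h (-1.09), differences that were not tested. From CLM to 4h in the SIK3 libraries, 7 of the 32 rose with a median of 0.44, next to 15 of 53 and 0.69 for the histone genes. The sums of the S phase list moved with those of the histone genes across the siRNAs, and its part in the histone levels was not tested.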

How the data were processed

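Total RNA of 12 PANC-1 libraries was used. The authors deposited gene-level read counts, not normalized, made with STAR 2.05b on GRCh38 and used with edgeR, per the submitters' processing notes; annotation release and strand setting are not given in the sources used here. Libraries were grouped by the file-name words, since the titles conflict. Genes were matched to GENCODE 29 by Ensembl identifier. In R 4.3.3, edgeR 4.0.16 fitted all 12 libraries as 6 groups with 6 residual degrees of freedom, after filterByExpr (minimum count 10, 16695 genes) and TMM scaling, with quasi-likelihood tests adjusted by Benjamini-Hochberg over all genes (threshold 0.05). Levels are TMM-scaled CPM. The replicate numbers pair the samples: deviations from the group means correlated at 0.544 to 0.731 (median 0.621) in 15 of 15 pairs of groups, so values with the replicate block are given where a call changed or a count moved over 1.5 times. Replicates of a group differed beyond counting error (chi-square per degree of freedom 16.5 to 33.5).

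The fit was tested on simulated data. Members and gene lists were chosen with earlier results of these data known. Named genes were SIK3, per class the 3 histone genes with the highest mean CPM, the 3 largest called folds per siRNA comparison and direction, calls against the majority, the polyadenylation-capable list, the 4 smallest p per other list in CLM and the 4 smallest p per interaction. HIST1H1D, HIST1H3E, HIST1H3G, HIST4H4, the HIST3 genes, SLBP, NPAT and ZNF473 were chosen after their values were seen, and their calls were not followed with libraries left out. Of 7 decay genes 5 were found by symbol. Divergent pairs were compared by log2 CPM ratios with exact permutation tests in Python 3.11.15. Alternatives were DESeq2 1.42.0 size factors, its Wald test, limma 3.58.1 voom, library totals, other filters, each library left out and conditions from the titles. Shares of all genes called are given for the edgeR fit without the block and not for any alternative.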

Additional observations from a re-analysis of the deposited data

Results flagged for a closer look

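The change from CLM to 4h differed between the siRNAs for 4 histone genes, by the interaction term of the edgeR quasi-likelihood fit. The log2 difference of the changes (SIK3 minus Scr1) was 0.817 for HIST1H1B, 1.368 for HIST1H2AH, 1.004 for HIST1H2BF and 1.842 for HIST1H3A. With the replicate block all 4 were among the 34 called, and with only the groups compared 0 were called.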

How the results depend on the processing

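Shares of all genes called are not given for the settings below, so these counts cannot be read as particular to the histone genes. With the replicate block, the histone genes called numbered 48, 47 and 47 for the siRNA in CLM, 30min and 4h, 2 and 4 for 30min and 4h in Scr1, 2 and 38 in SIK3, and 1 and 34 for the interactions at 30min and 4h. Beside the changes of call given with the results, HIST1H3D (log2 -0.496, edgeR adjusted p = 0.028) and HIST1H3A (-0.585, 0.00692) at 4h and SMG1 at 30min (0.225, 0.0146) were gained with the block, and no call of a named gene was lost. The rise at 4h in SIK3 was called for 26 genes with no filter, 3 at an adjusted p under 0.01 and 4 in a fit of only the groups compared. The interaction at 4h was called for 19 with no filter, 8 with a stricter filter, 9 with the DESeq2 Wald test, 2 with limma voom, and 0 both at an adjusted p under 0.01 and in a fit of only the groups compared. Leaving out 1 library gave 40 to 48, 37 to 43 and 26 to 38 calls for the siRNA in CLM, 30min and 4h, 1 to 2 at 4h in Scr1, 2 to 15 at 4h in SIK3, 0 to 2 for the interaction at 4h and a SIK3 difference of -1.394 to -1.193. Of 143 called values of named genes 29 lost the call without at least 1 library (edgeR adjusted p from 0.0508 to 0.237), and 0 changed sign.

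With conditions from the titles, the counts were 0, 45 and 13 for the siRNA in CLM, 30min and 4h (the 13 higher), 1 and 43 for 30min and 4h in Scr1, 44 and 37 in SIK3, and 36 and 7 for the interactions, and the SIK3 difference was -0.354. Shares of all genes called under the titles are not given, so these counts cannot be read as particular to the histone genes. The pair ratio differences were then -0.492, 0.218 and -0.168 (exact permutation p = 0.506, 0.407 and 0.117). Log2 changes that turned sign under the titles were, in CLM, SIK3 0.235, HIST1H1E 0.034, HIST1H2BD 0.077, HIST1H4L 0.041, HIST1H4A 0.191, HIST1H2BE 0.132, XRN1 0.071, MMS22L 0.065, ASF1B 0.088, NASP 0.065, H2AFV 0.049, CENPA 0.066, MCM4 0.075, GINS1 0.009. At 4h they were HIST1H1B 0.757, HIST1H1E 0.176, HIST1H2AJ 0.781, HIST1H2BD 0.018, HIST1H2BK 0.144, HIST1H2BJ 0.412, HIST1H3C 1.03, HIST1H3B 0.79, HIST1H3I 1.033, HIST1H4E 0.133, HIST1H4L 0.896, HIST1H2AH 1.439, HIST1H2BI 0.385, HIST1H2BE 0.748, HIST1H4H 0.366, HIST2H2BE 0.437, HIST1H2AD 0.472, HIST1H2BF 0.427, CPSF2 0.054, CCNE2 0.499, LSM11 0.267, NCBP1 0.031, ERI1 0.506, XRN1 0.143, UPF1 0.112, MMS22L 0.34, ASF1B 0.92, H2AFV 0.004, H2AFX 0.563, H2AFZ 0.208, MCM4 0.41, GINS1 0.559, RRM2 0.633, CCNA2 0.203. For 4h against CLM in SIK3 they were HIST1H1B -1.345, HIST1H2AH -1.672, HIST1H2BF -1.268, HIST1H3A -0.677. The pair ratio test and its alternatives were chosen after seeing the data. Depth limits the genes at 1 to 3 CPM and those left untested.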
